A study of Homo sapiens with 2 samples.

Results

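The genes described here are the entries that the authors assigned to the spliceosome among genes with peaks in an ALKBH5 immunoprecipitation; 4 of them are symbols other than the component gene itself. They were chosen by their presence in the Spliceosome pathway of the authors' deposited KEGG table, with symbols that begin with DDX or DHX left out. The pathway had 84 entries, 9 of which were such helicases, so 75 symbols remained of the 5851 named in the 3 deposited tables. Those 75 symbols stood on 72 distinct gene identifiers.

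The cells were HL-60, an established human leukaemia line of promyelocytic type. The study held 2 libraries, 1 of the lysate before immunoprecipitation (input) and 1 of RNA recovered with an antibody against ALKBH5 (IP), and a rabbit IgG control is described for the same lysate. Both libraries carry the same genotype label, ALKBH5, and no treatment, dose or time is named for them; the library names and the titles put the labels input and IP the opposite way round. The tables give no level per gene or per library, so a gene is either listed (it has an entry) or not, and IP could not be tested against input. Of 8 genes that mark promyelocytes, MPO, PRTN3 and CD33 were named in the tables, and ELANE, AZU1, CTSG, CEBPE and MYB were not (3 of 8, exact 95% interval 8.52 to 75.5%, against 26.9% of protein-coding genes). The GO and KEGG tables hold only terms with a deposited p-value under 0.05, so a gene that is not named may still have had a peak.

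The spliceosome removes introns from precursor mRNA. It is assembled on each intron from small nuclear ribonucleoproteins (snRNPs): U1 binds the start of the intron, U2 its branch point, and U4, U5 and U6 join together as a tri-snRNP before U1 and U4 leave and the PRP19 complex helps to form the active site. SR proteins and hnRNP proteins bind the precursor mRNA and influence which sites are used. ALKBH5 is a demethylase that erases N6-methyladenosine (m6A), a mark on RNA, and is found in nuclear speckles, the compartments where splicing factors gather.

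In the authors' deposited table, Spliceosome had a rich factor of 1.87 (the ratio of the pathway's share of entries to the overall share), a p-value of 0.000299 and a corrected p of 0.0486. It was the second pathway by p-value. The next, Cell cycle, had a corrected p of 0.1 in the same authors' deposited table. Spliceosome was thus the last pathway inside a corrected limit of 0.05, and lay close to it. The rich factor is built on entries, so symbols that share an identifier are each counted in it. The 84 entries of Spliceosome stood on 80 distinct identifiers, and the 116 of Autophagy - animal, the pathway ahead of it, on 59. Whether Spliceosome would stay inside the limit by distinct identifiers was not tested. Over the whole pathway, helicases included, 80 distinct identifiers were entered for 135 background genes (59.3%, exact Clopper-Pearson 95% interval 50.5 to 67.6%), and 55 background genes had no entry. The entries chose the members, so these values describe the choice and carry no test of it.

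Members came from each main particle of the spliceosome. Textbook components were arranged in 9 groups with 125 genes in all, and 71 of these were members (56.8%, 95% interval 47.6 to 65.6%). Over all protein-coding genes of the reference, 26.9% were named in any of the 3 tables. Since the pathway was itself among the deposited terms, a share above that level follows in part from the way the members were chosen, and nothing is read from it. The groups U2 (13 of 19), U1 (7 of 10), EJC/TREX/cap (8 of 12) and PRP19 (16 of 25) held the highest shares. The PRP19 count includes HSP70 chaperones, of which 5 of 6 were listed, beside 5 of 7 core and 6 of 12 related proteins. Sm (2 of 8) and a mixed group labelled step factors (2 of 6) held the lowest shares. With so few genes in a group the exact intervals overlap widely, for example 43.4 to 87.4% in U2 and 3.19 to 65.1% in Sm, and no difference between groups was tested.

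**Figure D1:**
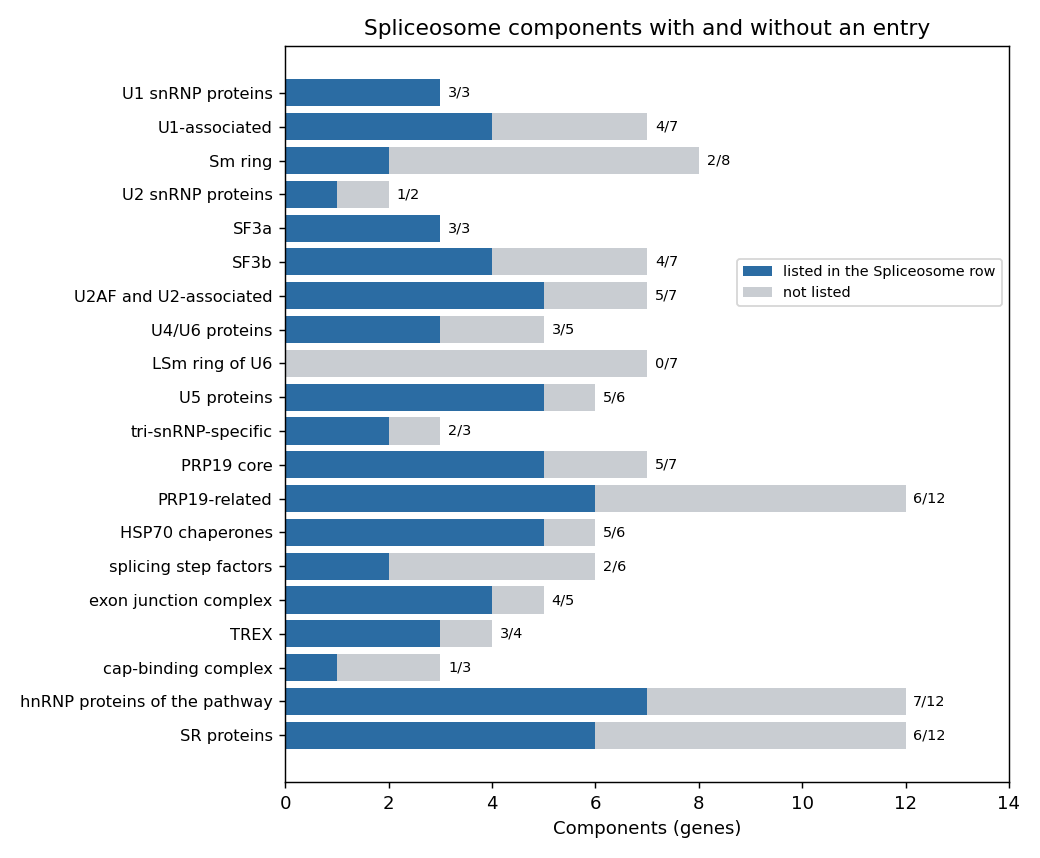
Horizontal bars give the number of component genes in each of 20 subgroups, split into those listed in the Spliceosome pathway (blue) and those not listed (grey), with listed/total beside each bar. All 3 U1 snRNP proteins and all 3 SF3a proteins were listed, and 0 of the 7 LSm genes.

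All 3 proteins specific to the U1 snRNP were members. They were SNRNP70, which binds the first stem-loop of U1 RNA, SNRPA, which binds the second, and SNRPC, a zinc-finger protein that steadies the pairing with the 5′ splice site. SNRNP70 lies on chromosome 19 from 49085451 to 49108604 and SNRPA on the same chromosome from 40751203 to 40765389 (RefSeq, GRCh38.p14). SNRPC, on chromosome 6 from 34757505 to 34773857, was the only member without an entry in any listed GO term. The U1-associated proteins PRPF40B and RBM25 were members. LUC7L, LUC7L2 and LUC7L3 were not members, but all 3 were named in the GO table.

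The U2 group was entered through all of SF3a, most of SF3b and most U2-associated proteins. All 3 SF3a proteins (SF3A1, SF3A2, SF3A3), which help U2 to engage the branch point, were members. Of the 7 SF3b proteins, SF3B1, SF3B2, SF3B3 and the small PHF5A were members, and SF3B4, SF3B5 and SF3B6 were not. SF3B1, which clamps the branch-point helix, lies on chromosome 2 from 197389784 to 197435093. SNRPB2 was a member and its partner SNRPA1 was not. U2AF2, the larger subunit of the factor that reads the polypyrimidine tract, was a member, as were PUF60, SMNDC1, CHERP and U2SURP. U2AF1, its smaller subunit that reads the AG at the 3′ splice site, and RBM17 were not listed. U2AF1 has a near-identical copy in the hg38 assembly, so its absence is uncertain; the part of this copy was not tested.

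The Sm and LSm rings are each a ring of small proteins around an snRNA. Among the 8 Sm genes, SNRPD1 and SNRPD3 were members, and SNRPB, SNRPN, SNRPD2, SNRPE, SNRPF and SNRPG were not. None of the 7 LSm genes that form the U6 ring was listed (LSM2, LSM3, LSM4, LSM5, LSM6, LSM7 and LSM8; exact 95% interval up to 41.0%). Together the rings held 2 of 15 (13.3%, 95% interval 1.66 to 40.5%), and the remaining components 69 of 110 (62.7%, 53.0 to 71.8%). The intervals cover counting error alone and treat genes as independent, which these related genes need not be. The rings were pooled after the data were seen, and the share of the remaining components follows in part from the choice of members. Both ring intervals include the 26.9% of protein-coding genes named in any of the 3 tables. A shortage of entries in the rings is therefore not shown.

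The tri-snRNP group held 10 members, 5 of them U5 proteins. Of the 6 U5 proteins, 5 were members: PRPF8, the largest protein at the catalytic core, the helicase SNRNP200, the GTPase EFTUD2, the bridging protein PRPF6 and the WD-repeat protein SNRNP40. The small thioredoxin-fold protein TXNL4A was not. PRPF8 lies on chromosome 17 from 1650629 to 1684867. On the U4/U6 side PRPF3, PRPF31 and the prolyl isomerase PPIH were members, and PRPF4 and SNU13 were not. SART1 and USP39, needed for tri-snRNP addition, were members, and SNRNP27 was not.

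The PRP19 group combined scaffold proteins with chaperones. PRPF19, the ubiquitin ligase that gives the complex its name, CDC5L, PLRG1, CTNNBL1 and PQBP1 were members, and BCAS2 and WBP11 were not. Of the PRP19-related proteins, SNW1, CRNKL1, XAB2, RBM22, PPIE and the intron-binding AQR were members, and ISY1, PPIL1, CWC15, BUD31, SYF2 and CCDC12 were not. The HSP70 chaperones HSPA8, HSPA1A, HSPA1B, HSPA2 and HSPA6 were members, and HSPA1L was not. HSPA1A and HSPA1B are near-identical genes 9.80 kb apart on chromosome 6, and in the table both carried the identifier 3304, which the reference gives to HSPA1B. Reads from the pair cannot be told apart with confidence, so their entries may stand for 1 gene. Of the mixed group labelled step factors, CDC40 and SLU7, which act around the second catalytic step, were members. PRPF18, PRPF38A, PRPF38B and ZMAT2 were not members, although the identifier of PRPF18 was entered under another symbol. Not all genes of this group act at that step.

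Of the components that bind or accompany the spliced mRNA, 8 of 12 were listed (66.7%, 95% interval 34.9 to 90.1%), against 56.8% of all components. Of the exon junction complex, the protein assembly left just upstream of each splice junction, EIF4A3, MAGOH, RBM8A and ACIN1 were members and MAGOHB was not. Of TREX, which couples splicing to export, THOC1, THOC2 and ALYREF were members and THOC3 was not. Of the nuclear cap-binding complex NCBP1 was a member, and NCBP2 and NCBP2L were not. EIF4A3, MAGOH, RBM8A, ACIN1, THOC1, THOC2, ALYREF, NCBP1 and the read-through symbol ATP6V1G2-DDX39B also stood in the KEGG pathway RNA transport, which makes 9 of the 75 members (12%) and 9.89% of that pathway's 91 entries. Of these 9, 7 were in mRNA surveillance pathway as well, and the missing ones were THOC1 and THOC2. The 5 HSP70 members were in Endocytosis too. For comparison, RNA transport, mRNA surveillance pathway and Endocytosis had 91, 54 and 126 entries, beside 5614 symbols in the GO and KEGG tables. These overlaps describe annotation, and nothing is read from them.

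Among RNA-binding regulators, 7 of the 12 hnRNP genes ascribed to the pathway were members: HNRNPA1, HNRNPA3, HNRNPC, HNRNPK, HNRNPM, HNRNPU and RBMX. PCBP1 and the copies HNRNPA1L2, RBMXL1, RBMXL2 and RBMXL3 were not; these copies resemble HNRNPA1 or RBMX closely, so the assignment of reads among them is uncertain. Of the 12 SR genes 6 were members: SRSF2, SRSF3, SRSF5, SRSF6, SRSF7 and TRA2A. SRSF1, SRSF4, SRSF8, SRSF9, SRSF10 and TRA2B were not. SRSF2, an exonic enhancer-binding protein, lies on chromosome 17 from 76734115 to 76737411.

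A set of 4 symbols stood on no component list and carried the identifier of a component gene. AC012314.8 carried the identifier of PRPF31, whose own symbol was also entered. PPIEL, a transcribed pseudogene on chromosome 1 from 39522280 to 39559698, carried that of PPIE, 179 kb away and entered as well. ATP6V1G2-DDX39B, which the reference calls a long noncoding RNA, carried that of DDX39B. RP11-295P9.13 carried the identifier of PRPF18, whose own symbol was in none of the tables. AC012314.8 and RP11-295P9.13 had no match in the reference. For these symbols the entry does not show whether the mRNA of the component itself carried a peak.

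Members also shared GO terms that the choice did not use, although both tables were drawn from the same peak genes. Spliceosome genes are annotated to splicing terms by definition, so the shares describe annotation. The number of listed GO terms per member had a median of 10, from 0 in SNRPC to 34 in HNRNPU. Nucleoplasm held 69 of the 75 members (92%, 95% interval 83.4 to 97.0%), and mRNA splicing, via spliceosome held 64 (85.3%, 75.3 to 92.4%). RNA binding held 60 (80%) and nuclear speck 51 (68%). Over all 5614 GO and KEGG symbols the shares were 34.5% for nucleoplasm, 2.94% for mRNA splicing, 14.6% for RNA binding and 4.61% for nuclear speck. In the authors' deposited table these terms had 1939, 165, 821 and 259 entries, so members made up 3.56%, 38.8%, 7.31% and 19.7% of them. The members outside nuclear speck included HNRNPA1, HNRNPA3, HNRNPC, HNRNPK, HNRNPM and RBMX, along with TRA2A, SNRPA, SNRPC, SNRPD1, SNRPD3 and SNRNP200. HNRNPU and all 5 SRSF members were inside it.

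Catalytic step 2 spliceosome, the particle in which the exons are joined, held 38 members (50.7%) out of 63 entries in the authors' deposited table. The GO term spliceosomal complex held 30 (40%), RNA splicing 23 (30.7%) and regulation of alternative mRNA splicing, via spliceosome 12 (16%). Over all GO and KEGG symbols the shares of these terms were 1.09%, 1.62% and 0.855%, and that of catalytic step 2 spliceosome was 1.12%. RNA export from nucleus and mRNA export from nucleus held 17 and 16 members (22.7% and 21.3%), against 0.748% and 1.43% of all GO and KEGG symbols. Protein export from nucleus and tRNA export from nucleus held 0 members; over all symbols their shares were also small, 0.463% and 0.517%, so no contrast can be read from these counts. The general terms nucleus, cytoplasm and cytosol held 64, 29 and 25 members (85.3%, 38.7% and 33.3%), against 41.3%, 35.3% and 43.9% of all symbols. The GO term mRNA splice site selection held 4 members (5.33%), against 0.285% of all symbols.

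**Figure D2:**
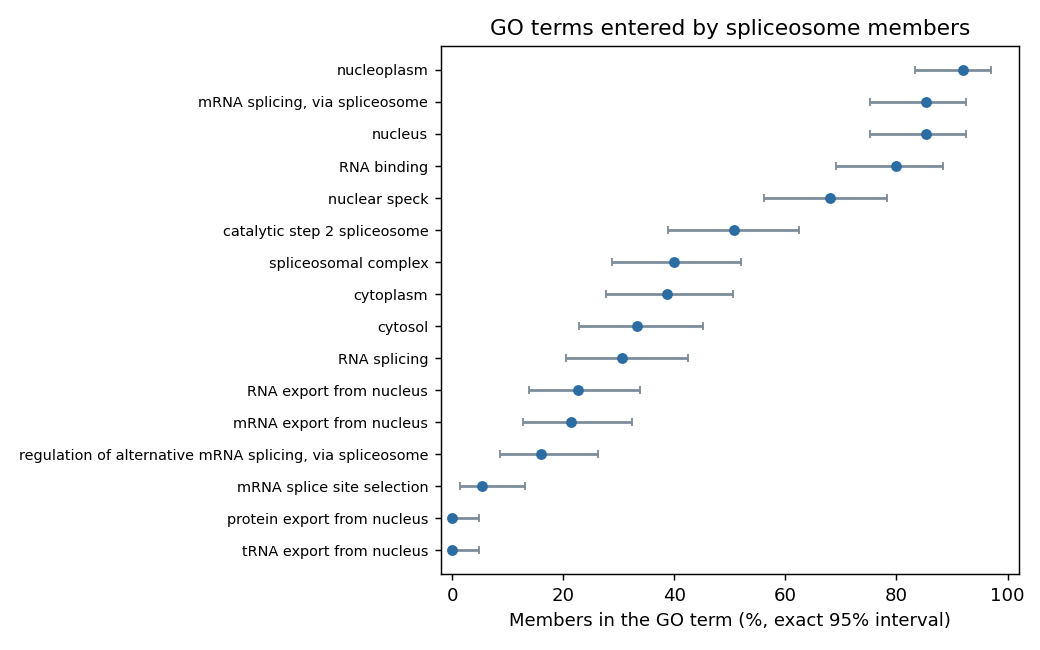
Points give the percentage of the 75 members with an entry in each GO term, and bars the exact 95% interval. Nucleoplasm is highest at 92% and the protein and tRNA export terms are at 0.

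Few members were in the authors' family table, which sets each of its 1348 symbols beside at least 1 family of RNA-binding proteins. In it were 6 of the 75 members (8%, 95% interval 2.99 to 16.6%), against 19.8% of the 5614 GO and KEGG symbols. The 6 were HSPA1A, HSPA1B, PLRG1, SF3A3, SNRPD1 and SRSF6. HSPA1A, HSPA1B and SRSF6 were paired with all 4 families (RRM, CSD, PUF and the combined CCHC ZF,RRM), PLRG1 and SNRPD1 with CSD, PUF and RRM, and SF3A3 with CSD and RRM. Of these, SRSF6 is an RRM protein; HSPA1A and HSPA1B are chaperones, PLRG1 is a WD-repeat protein and SNRPD1 an Sm protein. RRM was paired with all 1348 symbols of the family table, chaperones included, so a family does not give the symbol's own protein class. Members that are RRM proteins, such as SNRPA, SNRNP70, U2AF2, PUF60, HNRNPA1, HNRNPC, SRSF2, SRSF3 and TRA2A, were not in the family table. Their absence says nothing about their own domains.

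The paired members came from the Sm (1 of 2), U2 (1 of 13), PRP19 (3 of 16) and SR (1 of 6) groups, and those of PRP19 include HSPA1A and HSPA1B, which share an identifier. With 6 paired members in all, groups were not compared. The share was also lower than among symbols of RNA binding (121 of 821, 14.7%, 95% interval 12.4 to 17.4%) and of mRNA splicing, via spliceosome (22 of 165, 13.3%, 8.55 to 19.5%), but the members' interval reaches both of these values. Both sets contain members, 60 of the 821 and 64 of the 165. They are therefore not separate from the members, and no conclusion is drawn from the overlap. The families are no separate measurements, since RRM holds all 1348 symbols of the table and CSD 1342 of them. How the authors made the pairings is not given in the sources used here.

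**Figure D3:**
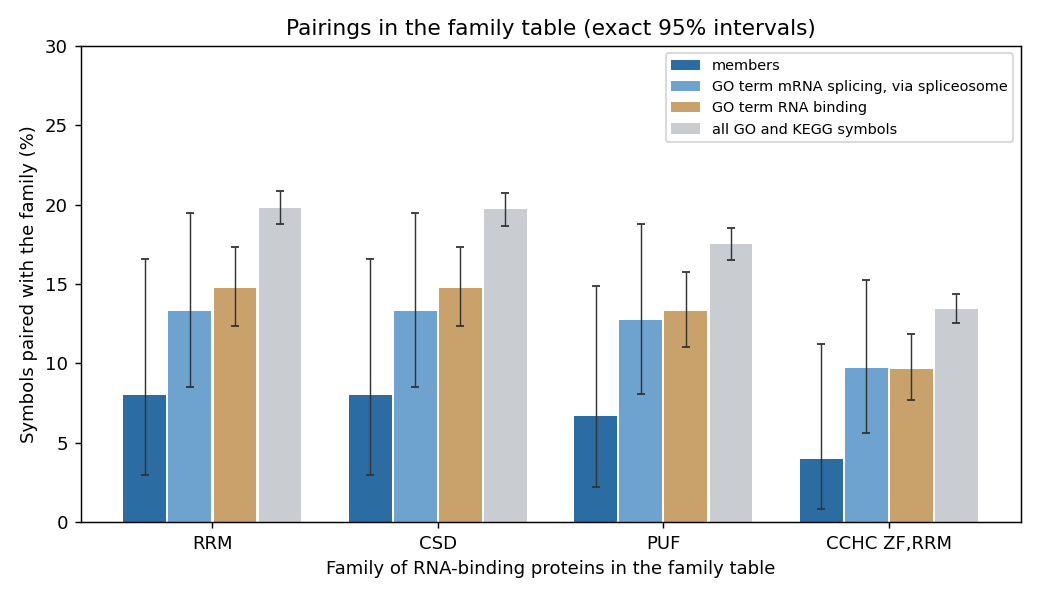
Bars give the percentage of symbols paired with each of the 4 families, for the members, the symbols of 2 GO terms and all GO and KEGG symbols, with exact 95% intervals. Members are at 8% for RRM against 19.8% of all symbols; RRM holds every symbol of the table, so the families are not independent of each other.

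Genomic lengths of listed and unlisted components overlapped. The median genomic length, introns included, was 19.3 kb over the 71 listed components (2.36 kb in HSPA6 to 178 kb in CTNNBL1) and 13.9 kb over the 54 unlisted ones (0.69 kb in SF3B5 to 155 kb in SNRPN), a ratio of 1.39. Among components at or under the median of 16.0 kb, 31 of 63 were listed (49.2%, 95% interval 36.4 to 62.1%), and above it 40 of 62 (64.5%, 51.3 to 76.3%), so the intervals overlap. Outside the Sm and LSm rings the share at or under that median was 31 of 54 (57.4%, 43.2 to 70.8%). The share above the median was not recomputed without the rings, so 57.4% and 64.5% are not a like comparison. The LSm genes, none listed, spanned 7.07 to 22.3 kb, and the HSP70 genes, 5 of 6 listed, 2.36 to 7.33 kb. The part of gene length in the listing was not tested. Transcript length and expression were not analysed here. Protein-coding genes as a whole had a median of 24.1 kb.

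**Figure D4:**
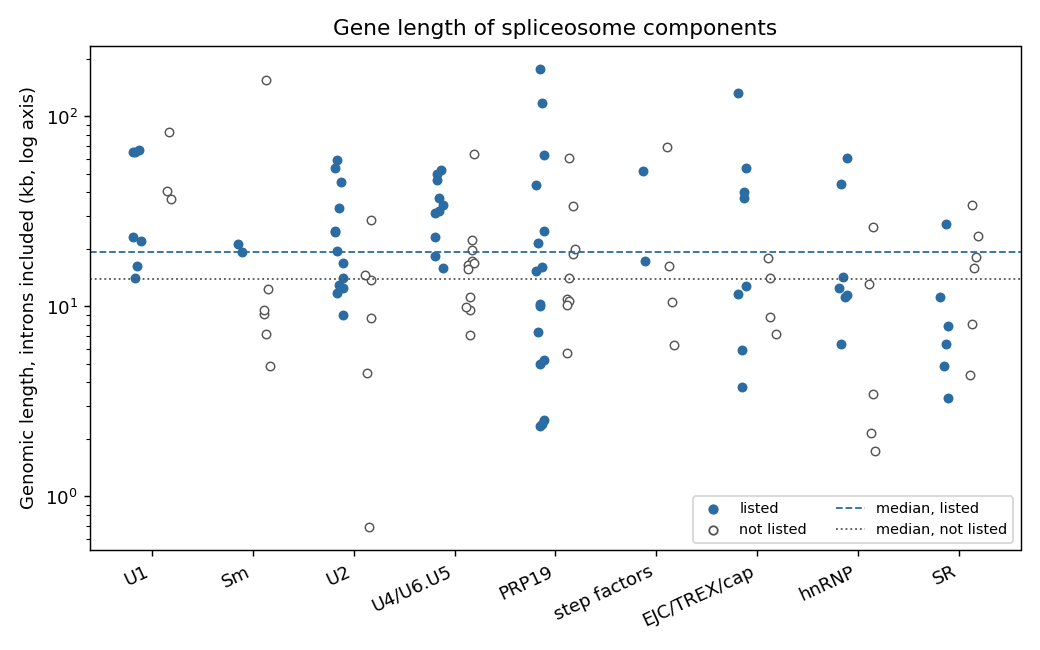
Each point is 1 of the 125 component genes, with its genomic length in kb on a log axis, by group; filled points are listed and open points are not. The dashed line is the median of listed genes (19.3 kb) and the dotted line that of unlisted genes (13.9 kb).

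Chromosomes 1 and 19 held the most members among listed components, 9 and 8 genes. The count on chromosome 1 was not set beside other genes, so nothing is read from it. The 8 on chromosome 19 were SNRNP70, SNRPA, U2AF2, SF3A2, PRPF31, CHERP, HNRNPM and XAB2 (11.3% of 71, 95% interval 4.99 to 21.0%). Of the unlisted components 3 of 54 lay there (5.56%), and of all protein-coding genes 7.23%. The interval of the listed components includes both values. Of the protein-coding genes of chromosome 19, 31.5% (95% interval 29.1 to 34.0%) were named in any of the 3 tables, against 26.9% of all protein-coding genes.

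The letters GGACT are a common form of the site where m6A is deposited. They were sought on the strand of the gene, in the first 50 bases from each annotated gene start (RefSeq, GRCh38.p14). A start sequence was on hand for 58 of the 71 listed components, and 2 of these held the letters (3.45%, 95% interval 0.42 to 11.9%). The share was 5 of 51 among unlisted components (9.80%, 3.26 to 21.4%) and 4.81% among 15843 protein-coding genes. The members with a match were the step factor SLU7 and the SR protein SRSF6. They are printed to show the letters in place, in capitals, with up to 8 bases on each side, 5′ to 3′ on the strand of the gene, at chr5:160419039-160419059 (minus) and chr20:43457899-43457919 (plus).
SLU7: tgtcggatGGACTtggggcta
SRSF6: gtgtggctGGACTcggccgcc
A match is a run of letters and not a measured m6A site, and no peak position was analysed here. Most m6A in mRNA lies near stop codons and in long exons, outside this window.

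Genes around the pathway were also named often in the tables. All 9 genes on a short chosen list of SR kinases and speckle proteins were named (95% interval from 66.4%). The list does not cover all such genes, so the count depends on the choice. It held the kinases CLK1, CLK2, CLK3, CLK4, SRPK1 and SRPK2, which phosphorylate SR proteins, and the speckle proteins SRRM1, SRRM2 and SON. Of 17 further hnRNP genes 12 were named (70.6%), with HNRNPA2B1, HNRNPF, HNRNPH1, HNRNPL and PTBP1 among them. Of 18 regulators of alternative splicing 13 were named (72.2%), among them QKI, CELF1, ELAVL1 and MATR3, and RBFOX2, MBNL1, TIA1, ESRP1 and NOVA1 were not. Of 8 proteins of the minor spliceosome, which removes a rare class of introns, 5 were named (62.5%, 95% interval 24.5 to 91.5%): RNPC3, SNRNP35, ZMAT5, PDCD7 and ZRSR2. For comparison 26.9% of protein-coding genes were named. Listed terms on splicing, speckles or RNA binding hold part of these genes. RNA binding held all 12 named further hnRNP genes and nuclear speck 0 of them. Of the 5 named minor spliceosome genes, 3 were in mRNA splicing, via spliceosome, and 0 in nuclear speck or RNA binding. The lists were also chosen with earlier results of these data known. The level is therefore no measure of binding, and its cause was not tested.

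Of 6 splicing factors that are recurrently mutated in myeloid neoplasms, 5 were named (exact 95% interval 35.9 to 99.6%), against 26.9% of protein-coding genes. SF3B1, SRSF2 and PRPF8 were members, ZRSR2 and LUC7L2 were named in GO terms, and U2AF1 was not named. The listed term mRNA splicing, via spliceosome held 4 of the 5. The share thus follows in part from the choice of members and from annotation, and nothing is read from it. The tables hold no sequence variants, and this statement concerns the presence of an entry alone.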

How the data were processed

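RNA from HL-60 lysate and from an ALKBH5 immunoprecipitation was sequenced as 1 library each; groups follow the library names, which the titles contradict. Per the submitters' processing notes, the build is hg38. Which enrichment tool, peak caller and aligner were used is not given in the sources used here, and read depth is unknown. Per the file headers, the authors deposited for each GO and KEGG term a count of entries, a count of background genes, a rich factor (a ratio), a p-value and a corrected p-value. The family table holds text.

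Symbols were matched to RefSeq (GRCh38.p14, 20056 protein-coding genes) by current, then by unambiguous older symbols; 373 of 5851 had no match. Component lists came from textbook knowledge and do not equal the KEGG gene set. The hnRNP list was limited to proteins ascribed to the pathway, so its coverage is not independent of the choice of members. The members and lists were chosen with earlier results of these data known. Members and unlisted components were named, apart from some items not reported here, with the 10 GO terms holding most members and those on splicing, speckles or export. Shares carry exact Clopper-Pearson 95% intervals (SciPy 1.17.1), which cover counting error only; the interval and motif code was tested on simulated data. No test between groups could be made. A planned search for RNP1 letters in member proteins was not run, since protein sequences were not used here. The GGACT search was added after the data were seen.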

Additional observations from a re-analysis of the deposited data

How the results depend on the processing

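The 75 members became 72 by distinct identifier and 84 with helicases kept. Overall component coverage stayed between 56.8% and 62.7% when any table, exact symbols or the GO table alone defined a listed gene, or the Sm and LSm rings were left out. For single groups, 26 of 27 such alternatives stayed within the interval of the first value; the exception was U1, at 100% when any table counted, through the 3 LUC7L genes. Pairing stayed between 4% and 8% of members by family, and was 6.76% without HSPA1B. The comparison share of 19.8% became 14.7% among RNA binding symbols; the cause was not tested. Members in mRNA splicing were 62 by identifier instead of 64. The ratio of median gene lengths was 1.55 for any table and 1.31 without the rings. With GGAC in place of GGACT, 17.2% of listed components matched, against 23.5% of unlisted components and 19.7% of protein-coding genes. The interval of the listed components (8.59 to 29.4%) includes both values. The alternatives by identifier for GO terms, without HSPA1B, without the rings and with GGAC were chosen after seeing the data. No paired analysis was possible because there is 1 library per group and no value per library. The search for RNP1 letters was not run. The depth behind an entry is unknown, so an unlisted component may have been poorly covered.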

Other observations

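Among genes that assemble snRNPs, 6 of 13 were named in the tables (46.2%, exact 95% interval 19.2 to 74.9%), and the interval includes the 26.9% of all protein-coding genes that were named. They were GEMIN2, GEMIN4 and GEMIN5 of the SMN complex, PRMT5 and WDR77, which methylate Sm proteins, and COIL, the scaffold of Cajal bodies. GEMIN6, GEMIN7, GEMIN8, STRAP, CLNS1A, SMN1 and SMN2 were not named. SMN1 and SMN2 are near-identical copies, and their absence is uncertain.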
